A study of Mus musculus with 3 samples.

Results

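The type I interferon pathway was followed through 9 genes: the receptor subunits Ifnar1 and Ifnar2, the signal transducer Stat2, and the interferon regulatory factors Irf1, Irf2, Irf3, Irf5, Irf7 and Irf9. They were taken as named genes of the pathway, and every probe whose RefSeq accession maps to one of them was used, which gave 12 of 39429 probes and 9 of 20825 named genes. Expression was measured on 1-colour oligonucleotide microarrays in tail-tip fibroblasts, the connective tissue cells that grow out of a mouse tail tip, on day 8 after 4 reprogramming factors (Oct4, Sox2, Klf4 and c-Myc) had been introduced. There were 3 groups with 1 array each. Old p16-/- cells came from 22-month-old mice that lack p16, a cyclin-dependent kinase inhibitor. Old cells came from 22-month-old wild-type (WT) mice, and Young cells from 2-month-old WT mice. All 3 groups carried the 4 factors, so none shows cells without them. The labels give neither the sex of the donors nor how many mice were pooled. The design text speaks of 2 independent experiments with different donors, and 1 array a group was analysed here. With no replicate arrays, no difference below has a test, a p-value or a replicate error.

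Type I interferons bind a receptor made of Ifnar1 and Ifnar2, whose associated Jak kinases phosphorylate Stat proteins. Stat2 and Irf9 are subunits of the complex ISGF3, which binds the interferon-stimulated response element (ISRE) in front of interferon-stimulated genes. Irf3 is made constitutively and, once phosphorylated downstream of nucleic acid sensors, starts interferon-beta transcription. Irf7 is itself an interferon-stimulated gene and amplifies interferon-alpha transcription. Irf1 is an activator induced by interferon-gamma through the gamma-activated site (GAS), Irf2 counters it at the same DNA elements, and Irf5 acts mainly in macrophages and other leukocytes.

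The promoter windows of 5 members are shown because these genes split into some that differed between arrays and some that did not, although all belong to 1 pathway. The sequences are the 250 bases before the annotated start in RefSeq (GRCm38.p6), 5′ to 3′ on the strand of the gene, and the capitals mark the ISRE core (GAAA, any 2 bases and GAAA again) on either strand or the GAS TTCNNNGAA.
Stat2, chr10:128270248-128270497, plus strand, with an ISRE core read on the opposite strand: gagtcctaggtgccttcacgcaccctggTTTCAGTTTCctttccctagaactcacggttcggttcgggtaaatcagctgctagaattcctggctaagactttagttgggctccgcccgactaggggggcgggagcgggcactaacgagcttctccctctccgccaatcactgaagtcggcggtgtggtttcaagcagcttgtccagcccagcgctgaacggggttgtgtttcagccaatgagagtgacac
Irf9, chr14:55603735-55603984, plus strand, no match: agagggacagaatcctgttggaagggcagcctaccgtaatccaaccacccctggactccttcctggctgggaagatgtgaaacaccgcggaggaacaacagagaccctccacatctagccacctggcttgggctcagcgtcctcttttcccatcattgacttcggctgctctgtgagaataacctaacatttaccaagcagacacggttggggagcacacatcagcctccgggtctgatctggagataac
Irf7, chr7:141266425-141266674, minus strand, no match: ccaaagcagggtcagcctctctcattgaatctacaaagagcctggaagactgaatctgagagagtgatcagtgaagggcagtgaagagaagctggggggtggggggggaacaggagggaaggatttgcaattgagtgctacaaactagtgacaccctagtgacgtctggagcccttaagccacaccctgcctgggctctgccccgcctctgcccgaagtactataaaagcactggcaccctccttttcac
Irf1, chr11:53769764-53770013, plus strand, with a GAS: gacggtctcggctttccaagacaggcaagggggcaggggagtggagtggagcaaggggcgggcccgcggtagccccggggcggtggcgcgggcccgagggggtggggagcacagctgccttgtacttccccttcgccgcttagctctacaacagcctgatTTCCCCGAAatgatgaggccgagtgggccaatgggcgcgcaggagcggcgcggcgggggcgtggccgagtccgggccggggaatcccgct
Irf2, chr8:46739495-46739744, plus strand, with an ISRE core and then a GAS: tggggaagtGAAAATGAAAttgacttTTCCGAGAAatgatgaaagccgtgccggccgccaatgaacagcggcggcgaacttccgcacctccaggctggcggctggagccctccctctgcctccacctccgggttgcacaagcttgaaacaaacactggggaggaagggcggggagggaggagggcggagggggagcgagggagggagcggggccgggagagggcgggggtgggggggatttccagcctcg

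The search covered whole windows of 300 bases, from 250 before to 50 after the start, on both strands, and 9 of 9 members had at least 1 window (11 windows in all). An ISRE core was found in 2 of 9 members, Stat2 and Irf2, against 3.99% of 27025 genes with a window. Among 14 genes with a window from a list of ISGF3 targets, 9 held it. A GAS was found in 4 of 9 members (Irf1, Irf2, Ifnar1 and Ifnar2), against 9.55% of all genes. The second windows of Irf1 and Irf9 held neither motif. No match says only that these letters are not in the window, and a match is not a measured site.

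Feature Extraction, the scanner software, called 58.4%, 61.6% and 57.4% of spots well above background on the Old p16-/-, Old and Young arrays, and the 3 arrays lay on 1 slide. Signals below are the deposited processed intensities. A log2 ratio is the difference of log2 signals after each array's 75th percentile (2267, 2273 and 2358) was subtracted. Over probes spotted 10 times, the SD of a log2 ratio of single spots was 0.0646 (Old p16-/- over Old) at signals of at least 1000, 0.105 between 200 and 1000, and 0.187 between 50 and 200. This is spot error within arrays and holds no spread between mice or cultures. All 9 fibroblast markers examined, among them Col1a1, Col1a2 and Vim, were well above background on all 3 arrays. They were not all level: Thy1 was at 3287 on Old p16-/-, 52045 on Old and 69467 on Young, and for Old p16-/- over Old the log2 ratio was -3.98 for Thy1, 1.61 for Pdgfra and -0.95 for Pdgfrb. Xist, a transcript of the inactive X chromosome, had signals of 1387 on Old p16-/-, 1548 on Old and 13.8 on Young. On Young it was not well above background. The Y-linked genes Eif2s3y and Ddx3y were at 6819 and 3949 on Young and not well above background on Old p16-/- or Old. By these genes sex-linked expression and age differ together in every comparison with Young.

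**Figure D1:**
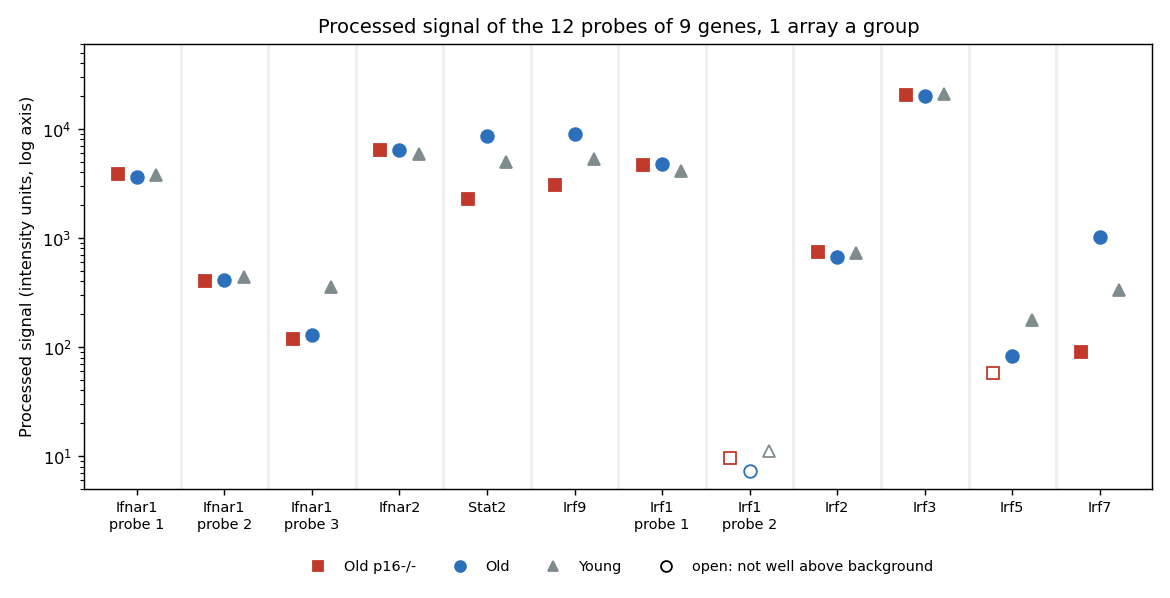
Processed signal (intensity units, log axis) of the 12 probes of the 9 genes, with a red square for Old p16-/-, a blue circle for Old and a grey triangle for Young, and open symbols where the spot was not well above background. Stat2, Irf9 and Irf7 were highest on Old and lowest on Old p16-/-, while the brightest Ifnar1, Ifnar2, Irf1, Irf2 and Irf3 probes stayed close together.

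Among the transcription factors, Irf7, Stat2 and Irf9 went together, and the receptor did not. They were lower on Old p16-/- than on Old by 11.3-fold, 3.77-fold and 2.93-fold. The fibroblast marker Thy1 and most macrophage markers were also lower in that comparison (median of the macrophage markers -1.97, bounds included). Their part in these differences was not tested. The same 3 genes were higher on Old than on Young, by 3.15-fold, 1.79-fold and 1.75-fold. Ifnar1, Ifnar2, Irf1, Irf2 and Irf3 had log2 ratios between -0.07 and 0.27 in these comparisons by their brightest probes. Irf5 was dim on all 3 arrays and was highest on Young.

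The receptor genes, at the head of the pathway, differed little by their brightest probes. Ifnar1 by its brightest probe had signals of 3882 on Old p16-/-, 3579.7 on Old and 3788 on Young. Its log2 ratio was 0.12 for Old p16-/- over Old and -0.03 for Old over Young. The first is just under 2 SD of the spot error for such a ratio (0.129) and the second is under 1 SD. A second Ifnar1 probe, at 403, 409 and 437 on Old p16-/-, Old and Young, gave -0.02 and -0.04. The third probe went another way, at 119 on Old p16-/-, 129.9 on Old and 353 on Young, with a log2 ratio of -1.39 for Old over Young and -0.13 for Old p16-/- over Old. All 3 probes carry the same accession, and the stretch of transcript that each one reads was not looked up here. Ifnar2, the subunit with the higher affinity for interferon, was measured by 1 probe at 6336 on Old p16-/-, 6380.4 on Old and 5867 on Young. Its log2 ratio was -0.01 for Old p16-/- over Old and 0.17 for Old over Young, the second of which exceeds 2 SD of the spot error (0.129).

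Stat2 had a signal of 2254 on Old p16-/-, 8522 on Old and 4951 on Young. Old was the highest of the 3 arrays and Old p16-/- the lowest. The log2 ratio was -1.91 for Old p16-/- over Old, 0.84 for Old over Young and -1.08 for Old p16-/- over Young. Of all counted genes, 2.01% had a lower ratio of Old p16-/- over Old, and 3.99% had a higher ratio of Old over Young. A gene was counted if either array of the pair called it well above background.

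Irf9, the DNA-binding subunit of ISGF3, had 3033 on Old p16-/-, 8907 on Old and 5282 on Young, in the same order as Stat2. Its log2 ratio was -1.55 for Old p16-/- over Old, 0.81 for Old over Young and -0.74 for Old p16-/- over Young. The values of these ISGF3 subunits differed from each other by 0.36 log2 units in the first comparison and 0.03 in the second. Irf9 was read by 1 probe, and so was Stat2.

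Irf7 had a signal of 89.7 on Old p16-/-, 1018 on Old and 335 on Young, all well above background. It had the largest measured difference of the 9 genes in each comparison. Its log2 ratio was -3.50 for Old p16-/- over Old, and 39 of 14691 counted genes had a lower one. For Old over Young it was 1.65, and 1.24% of 14546 counted genes had a higher one. Between Old p16-/- and Young it was -1.85. The signal on Old p16-/- is dim, with an error of 17.1% of the signal by Feature Extraction's own estimate, against 10.9% on Young. With normexp background correction the ratio was -2.52 for Old p16-/- over Old and -1.14 for Old p16-/- over Young.

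The remaining factors formed a level group. Irf3 had 20617 on Old p16-/-, 19849.8 on Old and 20884 on Young, and its log2 ratios were 0.06 for Old p16-/- over Old and -0.02 for Old over Young, both under 1 SD of the spot error, and the first turned to -0.04 with quantile normalization. Irf2 had 747 on Old p16-/-, 673 on Old and 731 on Young, with ratios of 0.15 and -0.07 in the same comparisons, both under 2 SD (0.210 and 0.215). Irf1 had 4631 on Old p16-/-, 4747 on Old and 4083 on Young. Its ratio was -0.03 for Old p16-/- over Old and 0.27 for Old over Young, and the second exceeds 2 SD of the spot error. A second Irf1 probe, designed on another transcript accession, failed the background call on all 3 arrays (signals of 9.50, 7.24 and 11.1 on Old p16-/-, Old and Young).

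Irf5 had 57.9 on Old p16-/-, where it was not well above background, 82.7 on Old and 175 on Young. Its log2 ratio was -1.03 for Old over Young, and -0.58 with normexp background correction. For Old p16-/- the bound equals the ratio to its dim signal, which failed the background call, so the true ratio can be smaller or larger. By it Old p16-/- was 1.42-fold lower than Old and 2.91-fold lower than Young, which is -0.51 and -1.54 in log2 ratio. These values depend on the processing. With normexp the log2 values were -0.21 and -0.79, the second no longer 2-fold, and quantile normalization gave -0.42 against Old. The error of the Irf5 signal by Feature Extraction's estimate was 23.7%, 15.2% and 13.1% on Old p16-/-, Old and Young. Its order across arrays, with Young highest, differs from that of Irf7, Stat2 and Irf9.

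**Figure D2:**
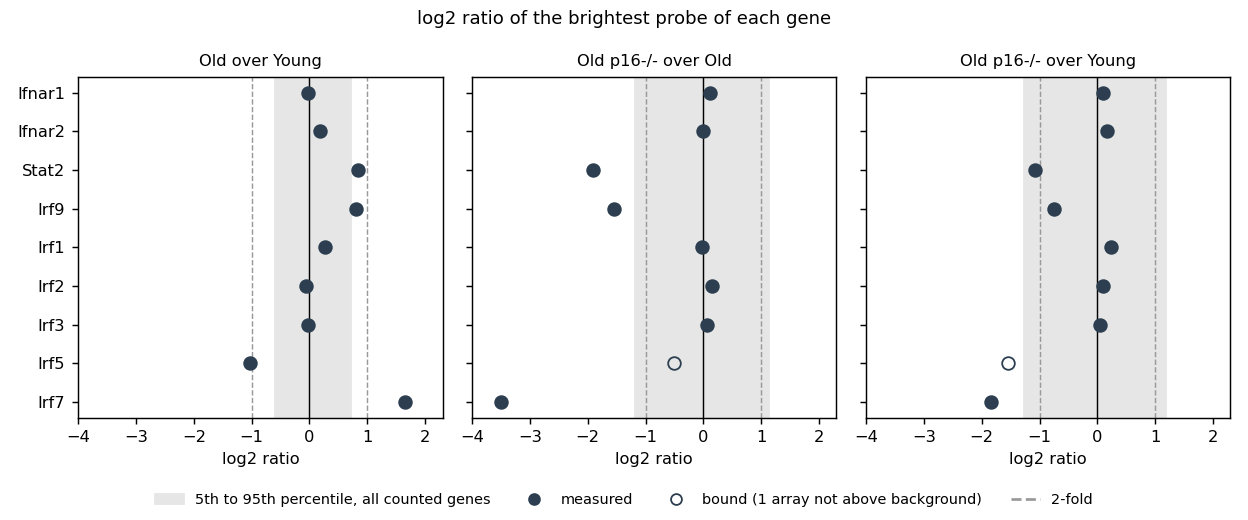
log2 ratio of each gene's brightest probe in the comparisons Old over Young, Old p16-/- over Old and Old p16-/- over Young. The grey band spans the 5th to 95th percentile of all counted genes, open circles are bounds and dashed lines mark 2-fold. Stat2, Irf9 and Irf7 lie above the band in the first comparison and below it in the second, and the points of Ifnar1, Ifnar2, Irf1, Irf2 and Irf3 lie inside it in all 3.

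Counted at 2-fold, 1 of 9 members was higher on Old than on Young (Irf7) and 1 was lower (Irf5), against 2.9% and 3.2% of all 14546 counted genes. The median log2 ratio of the 9 members was 0.17, against -0.01 over all counted genes. On Old p16-/- against Old, 3 of 9 were lower (Irf7, Stat2 and Irf9) and 0 higher, against 6.56% and 5.92% of 14691 counted genes. Among genes whose brighter signal reached 1000, where these 3 lie, 4.2% of 8835 were lower. The median was -0.03, against 0.03 over all genes, since 5 of the 9 members lay within 0.25 of 0. On Old p16-/- against Young, 3 of 9 were lower (Irf7, Irf5 and Stat2) and 0 higher, against 6.95% and 6.36% of 14281, with a median of 0.04 against 0.03. Without Irf5, whose difference rests on a bound, 2 were lower, which is also the count with normexp. Each pair of comparisons shares an array, so their counts are not independent.

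The list of ISGF3 targets, genes switched on through the ISRE, took by its medians the same order of arrays as Stat2, Irf9 and Irf7. Of 16 listed genes, 15 were at least 2-fold lower on Old p16-/- than on Old and 0 were higher, against 6.56% and 5.92% of all counted genes. The median log2 ratio was -2.94. On Old against Young, 9 were at least 2-fold higher and 0 lower, with a median of 1.11. Members of the list at the ends were Ifi27l2a at -4.68 and Oasl2, an oligoadenylate synthetase-like protein, at -4.38 for Old p16-/- over Old. The kinase gene Eif2ak2 (PKR) was the exception at 0.04. For Old over Young the ubiquitin-like Isg15 stood at 2.27 and the antiviral Rsad2 at -0.66. This list was drawn up with earlier results of these arrays known and is no independent evidence of its direction.

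**Figure D3:**
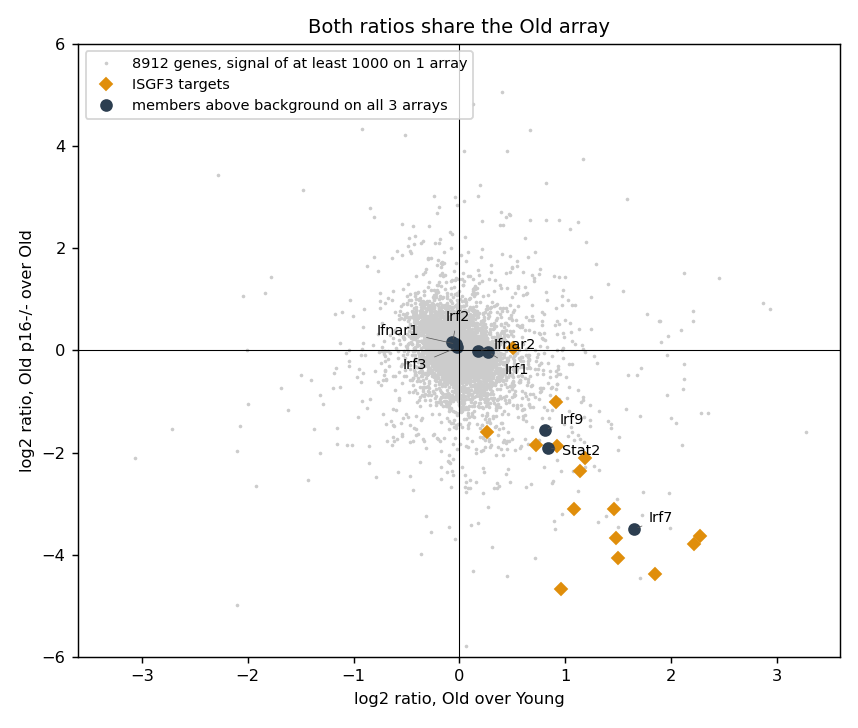
log2 ratio of Old over Young (x axis) against that of Old p16-/- over Old (y axis), which share the Old array. Grey dots are 8912 genes above background on all arrays with a signal of at least 1000 on at least 1 of them (1 lies outside the axes), orange diamonds are 15 ISGF3 targets, and dark circles are the 8 members above background on all arrays. Irf7, Stat2 and Irf9 lie at lower right among the ISGF3 targets, and the other 5 members lie near the origin.

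Most genes beside the members in the pathway were less than 2-fold apart, as were most counted genes. Of 7 other receptor and Jak kinase genes, 0 were 2-fold apart on Old p16-/- against Old (7 counted) or on Old against Young (6 counted). Over all counted genes 12.5% and 6.1% were, so a count of 0 in so short a list is no result about it. Jak1, which docks on Ifnar2, was at 18189 on Old p16-/-, 20744 on Old and 22568 on Young, and Tyk2, which docks on Ifnar1, was at 1045, 944 and 1034. Ifngr1 and Ifngr2, the interferon-gamma receptor subunits, had log2 ratios of -0.09 and -0.48 for Old p16-/- over Old. Among other Stats, Stat3 was at -0.27 and Stat5a at -0.44 for Old p16-/- over Old.

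Upstream of the Irfs, 12 of 13 adaptor and kinase genes were counted, and 0 were 2-fold apart in either comparison. Over all counted genes the shares were 12.5% for Old p16-/- over Old and 6.1% for Old over Young. The kinase gene Tbk1, which phosphorylates Irf3, was at 0.11 for Old p16-/- over Old and -0.13 for Old over Young. Sting1, the adaptor of cytosolic DNA sensing, was at -0.51 and -0.25, and the adaptor Mavs of RNA sensing at -0.05 and -0.09. Of 12 negative regulators, 1 was 2-fold apart in each of these comparisons, against the same shares. This was Usp18, an Isg15 protease that also blocks signalling at Ifnar2, at 439.6 on Old p16-/-, 9643 on Old and 3064 on Young (log2 ratios of -4.45 and 1.71). Socs1 and Socs3, inhibitors of Jak kinases, were at -0.12 and 0.16 for Old p16-/- over Old.

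The interferon genes themselves were dim. Of 15 ligand genes on the array, 9 passed the background call on 1 or more arrays, and their summed signal over spots above background was 590.1 on Old p16-/-, 827 on Old and 904 on Young. Ifnb1, which encodes interferon-beta, was well above background on Old alone, at a signal of 45.3, with 9.86 on Old p16-/- and 13.8 on Young, and no fold can be given. Ifng was at 124 on Old p16-/-, 42.5 on Old and 21.6 on Young, the last not well above background. In this range single spots have a wide error, and no order is read from them.

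**Figure D4:**
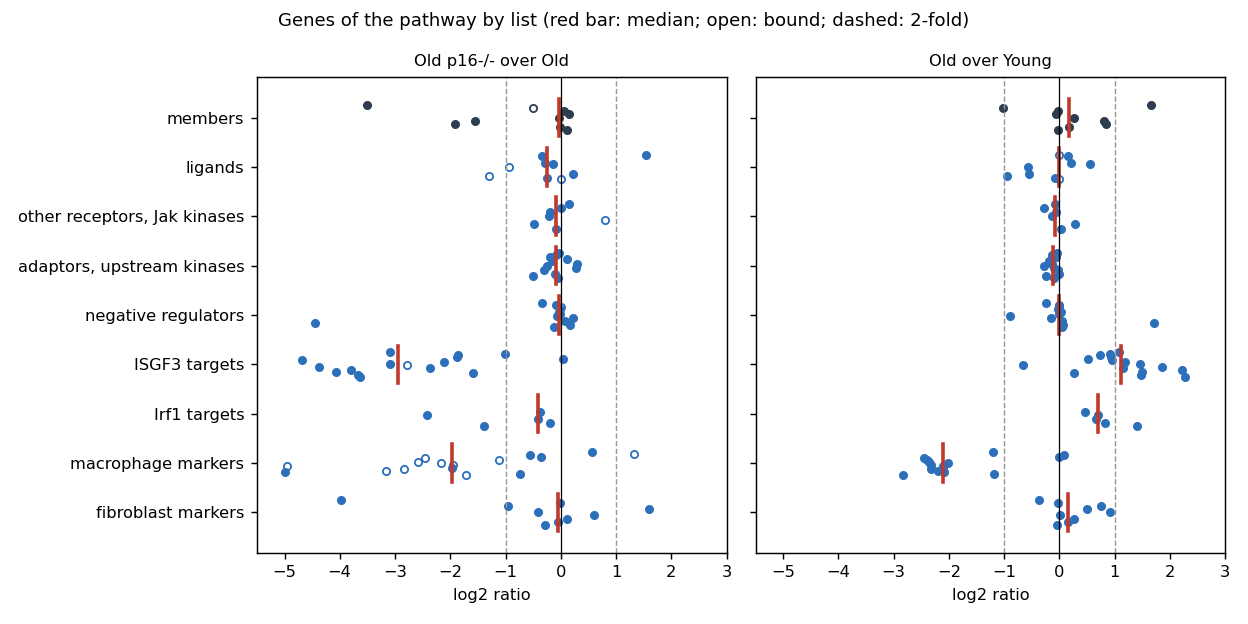
log2 ratio of each counted gene of the members, the pathway lists and 2 marker lists, for Old p16-/- over Old (left) and Old over Young (right), with the median as a red bar, bounds as open circles and 2-fold as dashed lines. The ISGF3 targets have medians of -2.94 and 1.11 and the macrophage markers -1.97 and -2.11, with bounds included. The lists of receptors, upstream adaptors and negative regulators centre near 0.

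Irf8, a leukocyte factor outside the 9 genes, was at 384 on Young and not well above background on Old p16-/- (39.2) or Old (34.7), at least 3.37 log2 units lower on Old than on Young. Like Irf5 it was highest on Young, and macrophage markers moved in the same direction. Of 16 macrophage markers on the array, 7 were well above background on Old p16-/-, 15 on Old and 15 on Young, and their summed signal was 18099, 30422 and 61352. The single bright marker Itgam, at 14934, 19071 and 19992, made up much of this, and without it, a choice made after seeing the data, the sums were 3165, 11351 and 41360. Of 15 counted for Old over Young, 13 were at least 2-fold lower, against 3.2% of all counted genes, with a median of -2.11. Among those that failed the background call on Old p16-/- were Adgre1, C1qa, C1qc and Tyrobp, with signals of 13.1, 10.9, 11.8 and 12.9. The 7 that passed it there were Csf1r, Lyz1, Fcer1g, Itgam, Cd14, Ptprc and Laptm5. The part of the macrophage markers in the values of Irf5 and Irf8 was not tested. In such bulk samples, fewer cells of a type and less RNA per cell cannot be told apart. On Old p16-/- against Old, 11 of 16 macrophage markers were at least 2-fold lower, against 6.56% of all counted genes. Their median was -1.97, in the direction of Irf7, Stat2 and Irf9. Markers that failed the background call on Old p16-/- enter this median as bounds, so it is not a measured size. In the other direction, 1 was at least 2-fold higher, against 5.92% of all counted genes. This was Ptprc at 1.33, with Old not well above background, and Laptm5 was at 0.56. On Old against Young, where most of the markers were lower, Irf7, Stat2 and Irf9 were higher. The part of the markers in the values of these 3 genes was not tested.

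**Figure D5:**
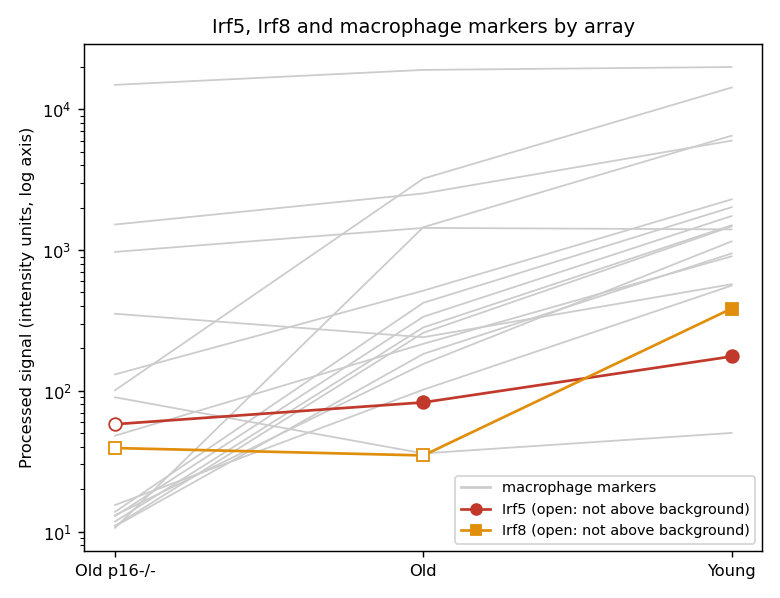
Processed signal (intensity units, log axis) of Irf5 (red), Irf8 (orange) and 16 macrophage markers (grey lines) on the Old p16-/-, Old and Young arrays, with open symbols where Irf5 or Irf8 was not well above background. Both Irfs were highest on Young, at 175 and 384, as were most of the markers.

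Genes most like each member were sought over the 2 log2 ratios Old over Young and Old p16-/- over Old, by Euclidean distance, among 8675 other named genes above background on all 3 arrays. For Irf7 the 5 nearest were Apol9a (distance 0.165), Apol9b (0.210), Ifit1 (0.246), Krt34 (0.284) and Rtp4 (0.337), and 3 genes lay within 0.25. For Stat2 they were Cilp (0.010), Kcnj15, Mpzl2, Phf11a and Galnt14 (0.066), with 13 genes within 0.25. For Irf9 they were Ppbp (0.138), Helz2, Heph, Abat and Ccl5 (0.235), with 6 within 0.25. Apol9a, at 2986 on Old p16-/-, 32929.5 on Old and 12129 on Young, had log2 ratios of -3.46 for Old p16-/- over Old and 1.49 for Old over Young. By contrast, 4416 genes lay within 0.25 of Irf3 and 4379 within 0.25 of Ifnar1, so their nearest genes single out nothing. The likeness rests on 3 arrays.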

How the data were processed

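Total RNA of 3 samples, 1 array a group, was hybridised as Cy3-labelled cRNA, per the labels. The deposited scanner files hold linear spot intensity made with Agilent Feature Extraction 11.5.1.1, background-subtracted and detrended but not normalized between arrays, per the file headers, and the same intensities stand in the deposited value table (39030 of 39030 single-spot probes matched, at a relative difference under 0.0001). Control spots and outlier spots (267, 246 and 246 on Old p16-/-, Old and Young) were left out, and 0 spots were saturated. The log2 signal was averaged over spots of a probe and the array's 75th percentile subtracted.

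Probes were named by matching accessions without versions to RefSeq genes of GRCm38.p6 (27508 of 39429 probes). The arrays were designed on mm9, per the file headers, so no probe coordinates are given. The brightest probe stood for a gene in counts. Where 1 of 2 arrays was not well above background, the ratio is a bound against either the dim level or the dimmest probe called above background there, whichever is higher.

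The members and lists were chosen with earlier results of these data known. All probes of members are named, list genes are named at the ends of a list or, after their values were seen, by role, and the 5 nearest genes follow a distance rule on genes with a signal of at least 1000. The ratio step was tested on simulated data. Alternatives used R 4.3.3 and limma 3.58.1. The files hold no mean spot signal, so normexp used the median one. Some genes of the lists are not reported here.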

Additional observations from a re-analysis of the deposited data

How the results depend on the processing

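No paired analysis was possible because each group has 1 array, and leaving out an array would end each comparison that uses it. Of 105 repeats of the counts and medians, 98 kept their value within 1.5 times (counts) or within 1 SD of the spot error (medians), and no 2-fold difference of a member changed sign under any alternative. The number at least 2-fold higher on Old than on Young was 3 at 1.5-fold, with Stat2 and Irf9 added. The number at least 2-fold lower on Old than on Young was 0 with normexp and 0 for genes with a signal of at least 1000, since Irf5 is dim, and the number lower on Old p16-/- than on Young was 1 at that signal, 2 with normexp and 2 among genes above background on both arrays, Irf5 being the gene lost in the last 2. The median for Old over Young was 0.27 at that signal and -0.0202 with the mean of all probes. That mean also gave a median of -0.49 for Old p16-/- over Young, where the dim probe 3 of Ifnar1 enters. The log2 ratio of Irf7 ranged from -3.55 to -2.52 for Old p16-/- over Old and from 1.37 to 1.68 for Old over Young, both ends nearest 0 coming from normexp, whose offset compresses dim signals. Stat2 ranged from -1.97 to -1.84 and Irf9 from -1.61 to -1.48 for Old p16-/- over Old. Irf5 ranged from -1.09 to -0.58 for Old over Young. Among the level genes, Ifnar1, Ifnar2, Irf1 and Irf3 changed sign in at least 1 comparison under at least 1 alternative. The normexp signals and the limit of 1000 were chosen after seeing the data.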

Other observations

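Of genes linked to Irf1, 5 of 8 were counted. For Old p16-/- over Old, 2 of the 5 were at least 2-fold lower, against 6.56% of all counted genes. Nlrc5, an activator of class I genes, was lowest at -2.43, and the guanylate-binding protein Gbp2 was at -1.38. Psmb9 (-0.20), B2m (-0.38) and Tap1 (-0.42) lay inside the 5th to 95th percentile of all counted genes (-1.18 to 1.13). Irf1 itself was at -0.03. For Old over Young the median of the 5 was 0.70, and 1 was at least 2-fold higher (Gbp2 at 1.41), against 2.9% of all counted genes.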
